A study of Mus musculus with 9 samples.

Results

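The expression of Trp53, the gene of the tumour suppressor p53, and of 9 genes that p53 is known to activate was followed through mouse brain tumour cells and astroglia. The genes were Trp53, Mdm2, Ccng1, Cdkn1a, Sesn1, Phlda3, Fas, Eda2r, Pmaip1 and Aen. They were chosen by name, with earlier results of these data known. Table rows were assigned to them through their RefSeq transcripts and added per gene. Of these 10 genes among 14771 named genes, 9 had rows to analyse and 8 passed the filter on low values. Cdkn1a was not analysed here, and Aen stayed below the filter.

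Messenger RNA was sequenced from 9 libraries. Olfactory bulb (OB) tumour cells and brainstem (BS) tumour cells, 3 libraries each, came from mice of mixed 129 and C57BL/6 background with Foxr2 overexpression and p53 cko. Astroglia (AG), 3 libraries, were of the C57BL/6 strain and carried p53 DN and an Nf1 shRNA. The labels do not spell out DN or cko, nor name the promoter or Cre line used, the part of Trp53 that the cko allele removes, or how many animals or cultures stand behind a group. All 3 groups thus carry a p53 alteration, and no library here has an unaltered p53 by its label. Strain, genotype and cell source differ together between the tumour cells and AG and cannot be told apart. The question the design puts to these genes is how p53 targets stand in p53 cko tumour cells beside p53 DN astroglia.

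In normal cells p53 is a transcription factor that is kept scarce by Mdm2, a ubiquitin ligase that marks it for destruction. After DNA damage or oncogene signalling it accumulates, binds DNA as a tetramer at paired decamer sequences, and turns on genes that halt the cell cycle, repair damage or kill the cell. Mdm2 and Ccng1 are themselves targets and close a negative feedback loop on p53. Loss of p53 function is common in malignant brain tumours.

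The sequences matter first for Trp53, because they decide what its row can count. The one Trp53 row analysed here belongs to a transcript that differs from the other RefSeq transcript of the gene by an insert of 96 bases. With transcripts cut into all stretches of 20 bases, 112 of its 1848 stretches (6.06%) were absent from the other transcript, and 16 of the 1752 stretches of the other transcript (0.913%) were absent from it. The insert changes the end of the reading frame, which runs over 381 codons with it and 390 codons without it. Both are shown around the point of insertion, from the GENCODE M21 transcripts matched to the RefSeq ones, with capitals for the insert up to its stop codon.
Trp53 with the insert: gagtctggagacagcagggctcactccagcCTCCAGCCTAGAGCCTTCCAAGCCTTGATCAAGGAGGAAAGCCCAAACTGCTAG
Trp53 without the insert: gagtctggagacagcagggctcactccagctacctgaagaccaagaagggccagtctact
Rows of genes with 3 or more RefSeq transcripts had a median of 6.81 normalized reads and those with 2 a median of 12.6, against 258.6 where the gene has 1, and the sources used here do not say how reads shared by transcripts were counted. A low Trp53 value is therefore not read as low expression of the gene.

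The DNA before the start of Ccng1 is shown because Ccng1 is the target with the most reads. The p53 decamer, a palindromic consensus that reads the same on both strands, was searched in windows from 250 bases before to 50 bases after each RefSeq start in build GRCm38.p6. That build differs from mm9, which the submitters' processing notes name, and the deposited table holds no positions. The Ccng1 window held a pair of decamers with no bases between them that matched the consensus at 19 of 20 letters, from 195 to 176 bases before the start. The 250 bases before the start lie at chr11:40755287-40755536 on the minus strand, and capitals mark the pair.
Ccng1: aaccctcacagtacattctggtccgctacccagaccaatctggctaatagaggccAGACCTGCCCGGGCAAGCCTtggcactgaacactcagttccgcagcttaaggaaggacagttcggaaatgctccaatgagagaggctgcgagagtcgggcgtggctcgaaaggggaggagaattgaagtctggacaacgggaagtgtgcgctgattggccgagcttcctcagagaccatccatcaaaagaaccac
Of 32851 such windows over all genes, 0.627% held a pair with at least 19 matching letters and at most 13 bases between the decamers. A single decamer without mismatch was held by 8.36% of windows.

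Single decamers without mismatch lay near the starts of 5 of the 8 analysed genes searched (all but Pmaip1): Ccng1, as part of its pair, and Trp53, Mdm2, Sesn1 and Aen. This count is of genes, and Sesn1 and Aen had several windows each. The share given above is of windows, and no share of genes is given beside the count. The count is therefore a description and says nothing of an excess. They are printed with 10 bases on either side and capitals for the decamer, to set the letters side by side with that of Ccng1.
Trp53, 75 bases before the start: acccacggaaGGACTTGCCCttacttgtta
Mdm2, 186 bases before the start: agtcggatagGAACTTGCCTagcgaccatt
Sesn1, 173 bases before its downstream start: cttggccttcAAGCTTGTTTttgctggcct
Aen, 121 bases before its downstream start: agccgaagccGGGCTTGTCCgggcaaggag
Ccng1, 185 bases before the start: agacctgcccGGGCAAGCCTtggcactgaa
No such letters stood in the windows of Phlda3, Fas and Eda2r, which says only that these 300 bases do not hold them. The downstream start of Sesn1 is that of the transcript without a row here, and the row measured belongs to a longer transcript that begins further upstream.

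The libraries held between 11300273 and 19868282 reads. Values below are normalized reads, that is, reads divided by 1 size factor per library, and differences were taken after adding 1 and going to log2, tested with limma over 10576 genes and called at a Benjamini-Hochberg adjusted p under 0.05. Foxr2 stood at 4505 to 6814 in OB, 7377 to 12567 in BS and 0 to 0.986 in AG, and Nf1 at 4184 to 8620, 4642 to 6239 and 1334 to 1588. Astrocyte markers summed to 8727 to 44731 in OB, 18913 to 44434 in BS and 8607 to 8702 in AG (9 of 10 genes with rows). Among them Gfap and Aqp4 had 5 and 2 reads in OB, 161 and 2 in BS and 7 and 5 in AG, near 0 in OB and AG alike. Gja1, at 4961 to 5396, Sox9, at 2328 to 2947, and Slc1a3, at 752.9 to 855.5, were well detected in AG. The other astrocyte markers with rows were low there, with 1 read of Aldoc, 17 of Aldh1l1, 23 of Atp1b2 and 81 of S100b. Slc1a3 had 88.4 to 23699 in OB and 11447 to 25665 in BS, and Atp1b2 1978 to 9799 and 1522 to 13482. Gja1 was lower in the tumour cells, at 1.11 to 662.4 in OB and 369.1 to 2879 in BS. Fibroblast and meningeal markers summed to 11.1 to 220.6 in OB, 48.6 to 60.8 in BS and 36859 to 47539 in AG (7 of 7 genes with rows; Dcn at 0 in both tumour groups). Pericyte and smooth muscle markers summed to 32.1 to 91.3, 9.23 to 47.3 and 52560 to 56002 (4 of 7 genes; Des at 0 in AG), and endothelial markers to 11.1 to 212.2, 28.6 to 242.4 and 921.3 to 1035 (4 of 7 genes; Cdh5 and Cldn5 at 0 in AG). Microglial markers summed to 68.5 to 81.8, 32.004 to 103.2 and 59.2 to 71.0 (3 of 10 genes), and neuronal markers to 4603 to 9613, 4439 to 6538 and 1056 to 1085 (6 of 7 genes; Rbfox3 and Snap25 at 0 in AG). In AG a single gene made up most of each of these sums. It was Col1a1 for the fibroblast sum (35280 to 46039), Acta2 for the pericyte sum (52507 to 55942) and Flt1 for the endothelial sum (910.5 to 1027). For the astrocyte sum it was Gja1, for the neuronal sum Tubb3 (647.9 to 765.4) and for the microglial sum Cd68 (37.0 to 41.4). Kdr, also an endothelial marker, had 6.63 to 198.9 in OB, 12.8 to 241.5 in BS and 7.88 to 10.8 in AG. These differences run alongside every comparison with AG below, and their part in it was not tested. In such bulk samples fewer cells of a type and less RNA per cell cannot be told apart.

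Trp53 did not differ detectably between the groups at this depth. Its row had 17.7, 51.4 and 31.5 normalized reads in OB_257, OB_287 and OB_295, 29.4, 18.1 and 35.5 in BS_287, BS_295 and BS_296, and 23.3, 23.7 and 34.8 in AG_1, AG_2 and AG_3. The 3 groups overlap, and the highest and the lowest of the 9 values are both from OB. The difference to AG was 0.19 ± 0.47 (SE) in OB (95% interval -0.88 to 1.26; limma adjusted p = 0.786) and -0.01 ± 0.47 in BS (-1.08 to 1.06; limma adjusted p = 0.992). A p of this size does not show equal levels, since both intervals reach past a 2-fold change on this scale in at least 1 direction. With 99 reads in OB, 88 in BS and 84 in AG from the insert-bearing row, the value checks neither the cko allele nor the DN protein.

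Mdm2, the ligase that holds p53 in check, was lower in the tumour cells by a small margin that passed the test in BS. The row analysed, that of 1 of its 2 RefSeq transcripts, had 17.7, 19.98 and 7.61 normalized reads in OB_257, OB_287 and OB_295, 12.6, 16.002 and 8.87 in BS_287, BS_295 and BS_296, and 31.7, 36.5 and 32.7 in AG_1, AG_2 and AG_3. All 6 tumour libraries lie below all 3 AG libraries, and OB_295 and BS_296 are the lowest. Mdm2 averaged 12.5 ± 3.57 in BS and 33.6 ± 2.52 in AG (SD, n = 3 each), a fall of -1.39 ± 0.44 (SE; limma adjusted p = 0.0373). In OB it averaged 15.1 ± 6.58 (SD, n = 3), a difference of -1.20 ± 0.44 that did not pass (limma adjusted p = 0.0617). Both results hang on few reads, 44 in OB, 39 in BS and 105 in AG. The BS call ended with upper-quartile scaling (limma adjusted p = 0.0677) and without AG_1 (0.110), AG_2 (0.133), AG_3 (0.115), BS_287 (0.0619) or BS_296 (0.102), and OB was called without OB_287 (0.0464), with a pseudocount of 5 (0.0428) and without a variance trend (0.0378).

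Ccng1, which encodes cyclin G1 and recruits a phosphatase that acts on Mdm2, was the clearest difference among the listed genes. It had 950.5, 769.9 and 962.9 normalized reads in OB_257, OB_287 and OB_295, 683.5, 752.1 and 744.8 in BS_287, BS_295 and BS_296, and 11975, 11715 and 12723 in AG_1, AG_2 and AG_3. The 6 tumour libraries lie within a range of 1.41-fold and far below AG. Ccng1 averaged 894.4 ± 108 in OB, 726.8 ± 37.7 in BS and 12138 ± 523.4 in AG (SD, n = 3 each), 13.6-fold lower in OB and 16.7-fold lower in BS. The log2 difference was -3.77 ± 0.14 (SE) in OB (limma adjusted p = 1.26e-06) and -4.06 ± 0.14 in BS (limma adjusted p = 1.14e-06). Under the alternatives tried the difference stayed between -3.82 and -3.46 in OB and between -4.09 and -3.74 in BS, and it was called in all of them. Ccng1 has 1 RefSeq transcript, so that its row is free of the limit named for Trp53.

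The row analysed for Sesn1, a sestrin that restrains growth signalling under stress, showed no such difference. Its row had 59.7, 76.1 and 94.6 normalized reads in OB_257, OB_287 and OB_295, 95.6, 97.1 and 107.4 in BS_287, BS_295 and BS_296, and 99.2, 76.9 and 107.8 in AG_1, AG_2 and AG_3. The tumour groups overlap with AG, and OB_257 is the lowest of the 9. The difference to AG was -0.31 ± 0.29 (SE) in OB (95% interval -0.97 to 0.35; limma adjusted p = 0.441) and 0.09 ± 0.29 in BS (-0.57 to 0.75; limma adjusted p = 0.830). For this row both intervals leave out a fall of the size measured for Ccng1. It is the row of 1 of the 2 RefSeq transcripts of Sesn1, so the limit named for Trp53 holds. The other transcript was not analysed here, and nothing is said of the gene as a whole.

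**Figure D1:**
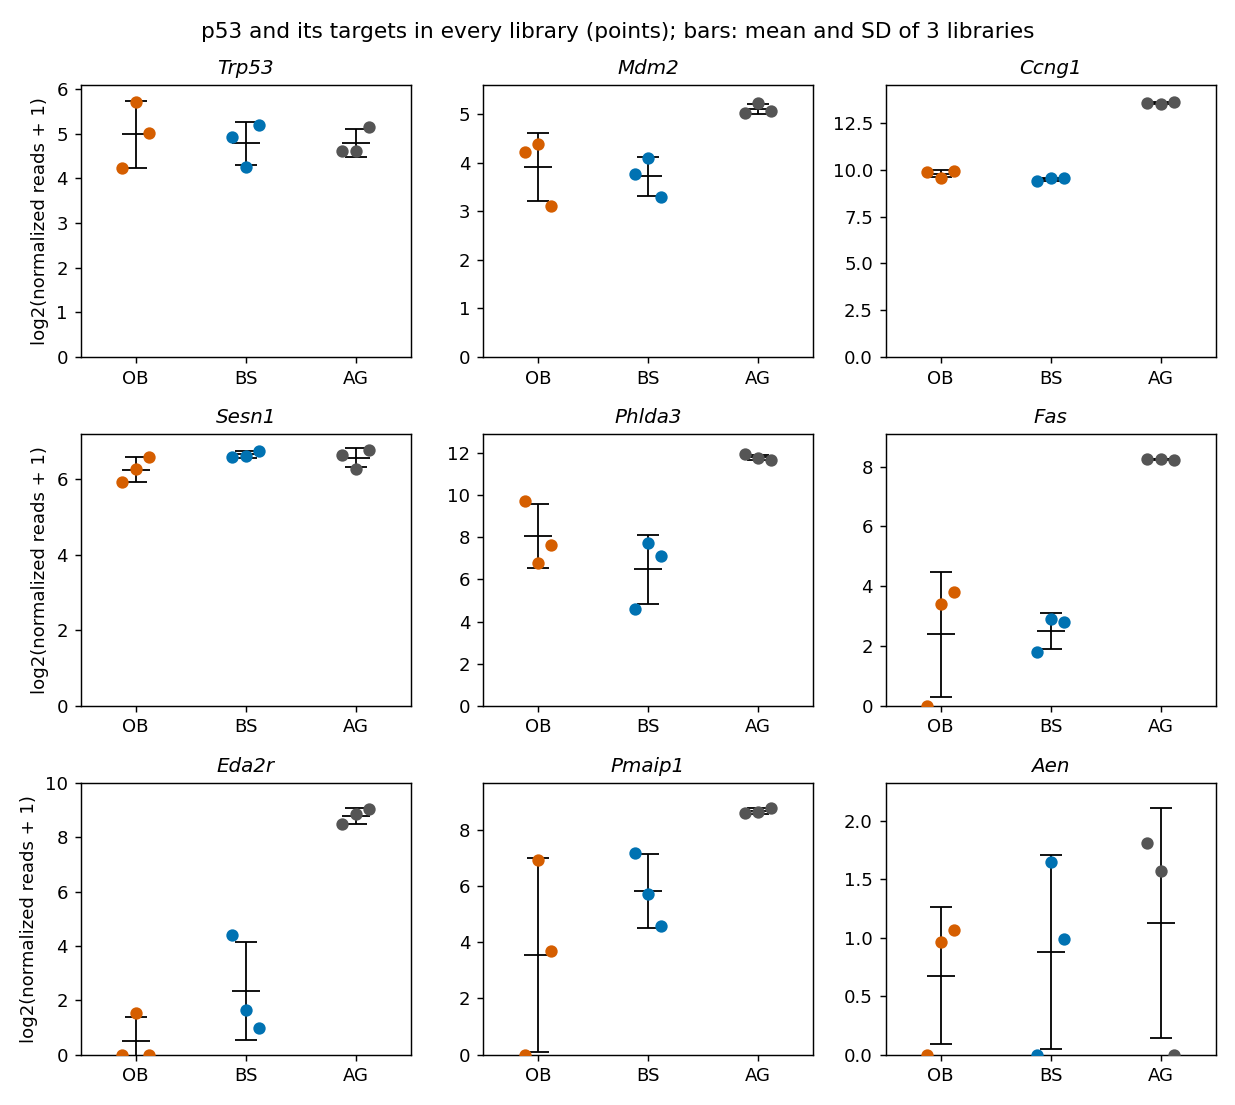
Each panel shows 1 gene on its own vertical axis, log2(normalized reads + 1), with 1 point per library for OB tumour cells, BS tumour cells and AG astroglia, and bars for the mean and SD of 3 libraries. Ccng1, Phlda3, Fas, Eda2r and Pmaip1 stand lower in every OB and BS library than in any AG library, as does Mdm2 by a smaller margin, while Trp53, Sesn1 and Aen overlap.

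Phlda3, which competes with the kinase AKT for membrane lipids and so dampens survival signalling, was lower in both tumour groups but varied widely among them. It had 851.0, 110.4 and 199.97 normalized reads in OB_257, OB_287 and OB_295, 23.5, 211.2 and 136.0 in BS_287, BS_295 and BS_296, and 3898, 3469 and 3249 in AG_1, AG_2 and AG_3. No tumour library reached AG, and OB_257 lies 36.2-fold above BS_287. Phlda3 averaged 387.1 ± 404.2 in OB, 123.6 ± 94.5 in BS and 3539 ± 329.8 in AG (SD, n = 3 each). The fall was -3.72 ± 0.90 (SE) in OB (limma adjusted p = 0.0130) and -5.31 ± 0.90 in BS (limma adjusted p = 0.00244).

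The death receptor Fas and Eda2r, both of the tumour necrosis factor receptor family, were near 0 in most tumour libraries. Fas had 0, 9.52 and 13.04 normalized reads in OB_257, OB_287 and OB_295, 2.52, 6.40 and 5.91 in BS_287, BS_295 and BS_296, and 303.5, 303.5 and 300.6 in AG_1, AG_2 and AG_3. The 3 AG libraries lie close together, and tumour libraries lie between 0 and 13.04. The fall was -5.84 ± 0.91 (SE) in OB (limma adjusted p = 0.00151) and -5.75 ± 0.91 in BS (limma adjusted p = 0.00168). Fas passed the filter on low values only through AG, so these p-values lend no support and the levels are a description. Both Fas transcripts had rows, and nearly all AG reads fell on the longer one, at 291.8 to 299.6, with 3.94 to 8.71 on the shorter one. The shorter one had 0 reads in all 3 BS libraries and in OB_257.

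Eda2r, the receptor of the ectodysplasin form EDA-A2, had 0, 1.90 and 0 normalized reads in OB_257, OB_287 and OB_295, 20.1, 2.13 and 0.985 in BS_287, BS_295 and BS_296, and 355.2, 458.3 and 521.6 in AG_1, AG_2 and AG_3. OB held 2 reads of it in all, and BS_287 stands above the other tumour libraries. By reads Eda2r was 629-fold lower in OB than in AG, with an exact 95% counting interval of 174 to 5198 that covers counting error only. The fall in BS was -6.44 ± 0.86 (SE; limma adjusted p = 0.000694), and OB was called as well (limma adjusted p = 0.000180). Fas and Eda2r passed the filter on low values through AG, each with 1 tumour library at 10 normalized reads or more. A gene that enters a test that way is bound to differ, so the levels of Eda2r are a description too. Like Mdm2, Eda2r is read here through 1 row, of its 3 RefSeq transcripts.

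Pmaip1 encodes NOXA, a BH3-only protein that promotes cell death at the mitochondrion. It had 0, 119.0 and 11.95 normalized reads in OB_257, OB_287 and OB_295, 144.3, 51.2 and 22.7 in BS_287, BS_295 and BS_296, and 381.9, 389.3 and 435.6 in AG_1, AG_2 and AG_3. Every tumour library lies below AG, yet the tumour values run from 0 to 144.3. Pmaip1 fell in OB, by a log2 difference of -5.12 ± 1.49 (SE; limma adjusted p = 0.0280), and the difference of -2.84 ± 1.49 in BS did not pass (limma adjusted p = 0.173). The OB call ended with edgeR on recovered reads (edgeR adjusted p = 0.106) and, by limma, without AG_1 (0.0800), AG_2 (0.0796), AG_3 (0.0837) or OB_295 (0.0631). In BS the gene was called with the compared groups alone (limma adjusted p = 0.0130) and without OB_257 (0.0371). The OB difference ran from -6.81 to -3.15 under the alternatives, and OB_257, at 0, enters it through the pseudocount alone. Group means of Pmaip1 were 9.22-fold lower in OB and 5.53-fold lower in BS than in AG.

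Aen, an apoptosis-enhancing nuclease, had 0 to 1.09 normalized reads in OB, 0 to 2.13 in BS and 0 to 2.501 in AG. These are 2, 3 and 5 reads per group from 1 row, for a gene with 4 RefSeq transcripts, and no difference was detectable at this depth.

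**Figure D2:**
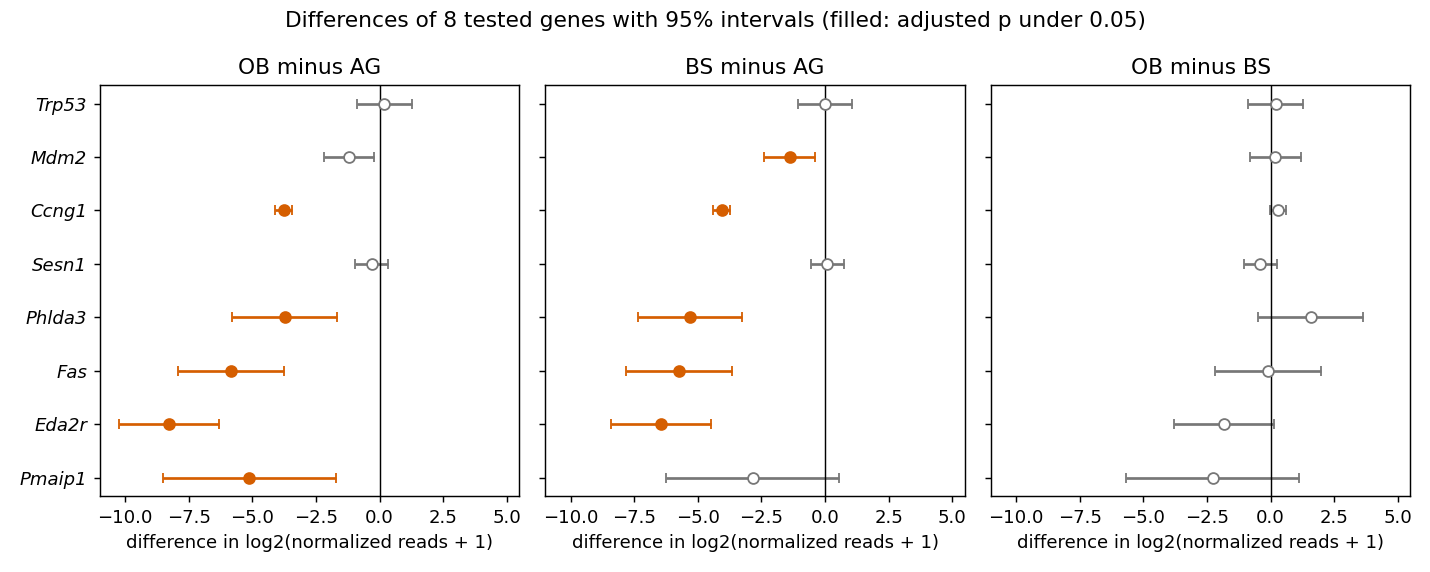
Points give the difference in log2(normalized reads + 1) for 8 tested genes in OB minus AG, BS minus AG and OB minus BS, with 95% intervals from limma, filled where the adjusted p is under 0.05. Ccng1 has the narrowest intervals, Eda2r the largest differences to AG, and no gene is called in OB minus BS.

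Of the listed genes, 5 of the 8 tested genes were called lower in OB (Ccng1, Phlda3, Fas, Eda2r and Pmaip1) and 5 in BS (Ccng1, Phlda3, Fas, Eda2r and Mdm2), and 0 higher in either. Over all genes tested limma called 34.9% in OB (16.0% higher, 19.0% lower) and 35.1% in BS (15.6% higher, 19.5% lower), and edgeR on recovered reads called 35.2% and 34.8%. Upper-quartile scaling moved the median of all genes to 0.18 in each and called 2158 genes higher and 1675 lower in OB and 2135 and 1674 in BS, against 1687 and 2008 in OB and 1652 and 2060 in BS as deposited. The median difference of the 8 was -3.75 in OB and -3.45 in BS, against -0.01 and -0.03 over all genes tested. The groups did not overlap for 6 of the 8, with the tumour group lower, in each comparison, as was so for 30.8% of all genes in OB and 31.8% in BS. With Fas and Eda2r entering through AG, and the genes chosen with earlier results known, these counts are a description. The 2 comparisons share the AG libraries.

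Between the tumour sites no listed gene was called. The OB minus BS difference was 0.29 for Ccng1 (95% interval -0.04 to 0.62), 0.20 for Trp53 (-0.88 to 1.27), 0.19 for Mdm2 (-0.81 to 1.18) and -0.40 for Sesn1 (-1.06 to 0.26). It was 1.58 for Phlda3 (-0.48 to 3.64), -0.09 for Fas (-2.17 to 1.98), -1.83 for Eda2r (-3.80 to 0.13) and -2.28 for Pmaip1 (-5.68 to 1.12). The limma adjusted p ran from 0.540 for Eda2r to 0.986 for Fas. The intervals of Phlda3, Fas, Eda2r and Pmaip1 are wide enough to hold large differences in at least 1 direction. Limma called 0 of 10576 genes (0%) in this comparison, with 0 of the 8 genes and 9.64% of all genes at an unadjusted p under 0.05. EdgeR called 0 genes, and DESeq2 called 2.24% of all genes and 0 of the 8. Ccng1 did not overlap, with OB higher, as for 5.36% of genes, and Sesn1 did not, with OB lower, as for 4.63%.

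The tumour libraries did not rank alike from target to target. OB_257 had the highest Phlda3 of the 6 tumour libraries and 0 reads of Fas, Eda2r and Pmaip1. BS_287 had the highest Pmaip1 and Eda2r and the lowest Phlda3 and Ccng1. Ccng1 by contrast stood between -4.1 and -3.7 relative to the AG mean in all 6, on the log2 scale. Phlda3 ran from -7.2 to -2.1 and Pmaip1 from -8.7 to -1.5.

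**Figure D3:**
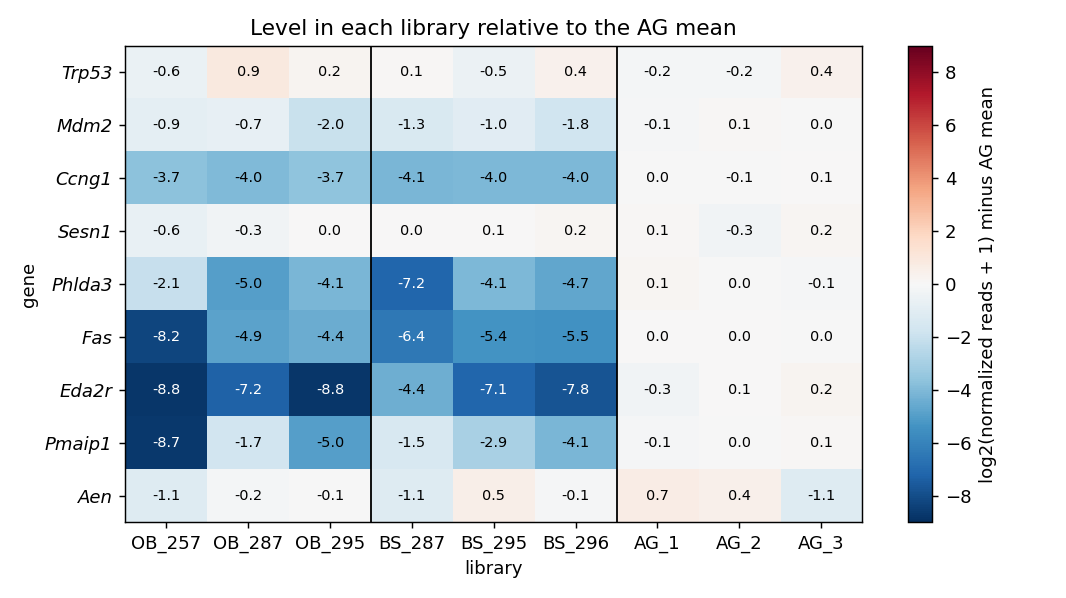
Rows are 9 genes and columns the 9 libraries, and each cell gives log2(normalized reads + 1) minus the mean of the 3 AG libraries. Ccng1 is about equally low across the tumour libraries, at -4.1 to -3.7, while Phlda3, Fas, Eda2r and Pmaip1 differ from library to library.

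Other targets of p53 were taken from textbook knowledge, 53 genes of which 33 were tested. In OB 12 were called lower and 1 higher, beside 19.0% lower and 16.0% higher over all genes, with a median difference of -1.08. In BS 12 were called lower and 3 higher, beside 19.5% and 15.6%, with a median of -0.98. Without AG_1, AG_2 or AG_3 the number called in either direction came to 5, 5 and 6 in OB, and without AG_2 or AG_3 to 9 each in BS, against 13 in OB and 15 in BS with all libraries. Of the 12 called lower, 3 in each comparison passed the filter only through AG, as Fas and Eda2r did.

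Of the targets that promote cell death 4 of 9 tested fell in OB and 5 of 9 in BS, and 0 rose, where 19.0% of all genes were called lower and 16.0% higher in OB and 19.5% and 15.6% in BS. Bax, a pore-forming protein of the outer mitochondrial membrane, averaged 2355 ± 289.3 in OB, 2194 ± 595.7 in BS and 6092 ± 295.6 in AG (SD, n = 3 each). The log2 difference was -1.38 in OB (limma adjusted p = 0.00174) and -1.51 in BS (limma adjusted p = 0.00110). Bid, a BH3-only protein cleaved after death receptor signalling, had 221.7 to 316.1 in OB, 172.8 to 431.5 in BS and 1375 to 1414 in AG, with no overlap. Its limma adjusted p was 0.000746 in OB and 0.000808 in BS. Bbc3, which encodes PUMA, was not called in either (limma adjusted p = 0.264 in OB and 0.0689 in BS).

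Among 9 tested targets tied to cell cycle arrest, 3 fell in OB and 0 rose, beside 19.0% lower and 16.0% higher over all genes. In BS 3 fell and 2 rose, beside 19.5% and 15.6%. Btg1, an antiproliferative cofactor, had 525.0 to 732.8 in OB, 416.1 to 2273 in BS and 4090.0 to 4432 in AG, and was called in both (limma adjusted p = 0.00431 and 0.00960). Ckap2, a spindle protein, averaged 2257 ± 432.8 in OB against 6003 ± 301.6 in AG (SD, n = 3 each; limma adjusted p = 0.000361). In BS it averaged 3308 ± 371.6 (SD, n = 3) and was called lower as well (limma adjusted p = 0.00493). Rprm, or reprimo, was called higher in BS, with 306.2 to 1121 in BS against 35.9 to 53.2 in AG (limma adjusted p = 0.0313). That call ended without AG_1 (0.0851), AG_2 (0.0805), AG_3 (0.0979), BS_287 (0.0801) or BS_296 (0.0894). In OB Rprm had 37.6, 1039 and 937.9 in OB_257, OB_287 and OB_295 and was not called (limma adjusted p = 0.0915).

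Of 10 tested repair and metabolism targets 2 fell and 1 rose in each comparison (20% and 10%), against 19.0% lower and 16.0% higher over all genes in OB and 19.5% and 15.6% in BS, so that the shares are near those of all genes or below. Slc19a2, a thiamine transporter, had 2.21 to 4.35 in OB, 1.68 to 6.90 in BS and 33.4 to 44.6 in AG, and Ak1, an adenylate kinase, had 2 reads in OB, 1 in BS and 11.7 to 14.2 normalized reads in AG. These are the 2 that fell, and both passed the filter only through AG, so that their levels are a description. Fdxr, ferredoxin reductase, rose in BS, with 550.5 to 1084 against 259.2 to 318.5 in AG (limma adjusted p = 0.00975). It rose in OB too, with 520.6 to 1004 (limma adjusted p = 0.0295). The OB call ended by limma without AG_1 (0.0779), AG_2 (0.0784), AG_3 (0.107) or OB_257 (0.0666). The repair genes Ddb2, Xpc and Ercc5 were not called in either comparison, the smallest limma adjusted p of the 3 being 0.0559, for Ercc5 in BS.

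Of 5 tested secreted and membrane targets 3 fell in OB and 2 in BS, against 19.0% and 19.5% of all genes, and 1 of those in each comparison passed the filter only through AG. Pltp, a phospholipid transfer protein, had 7.61 to 66.3 in OB, 15.9 to 39.4 in BS and 805.8 to 918.0 in AG, with no overlap between tumour cells and AG (limma adjusted p = 0.000734 and 0.000980). Fibroblast markers given above run alongside it, and their part in the result was not tested.

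**Figure D4:**
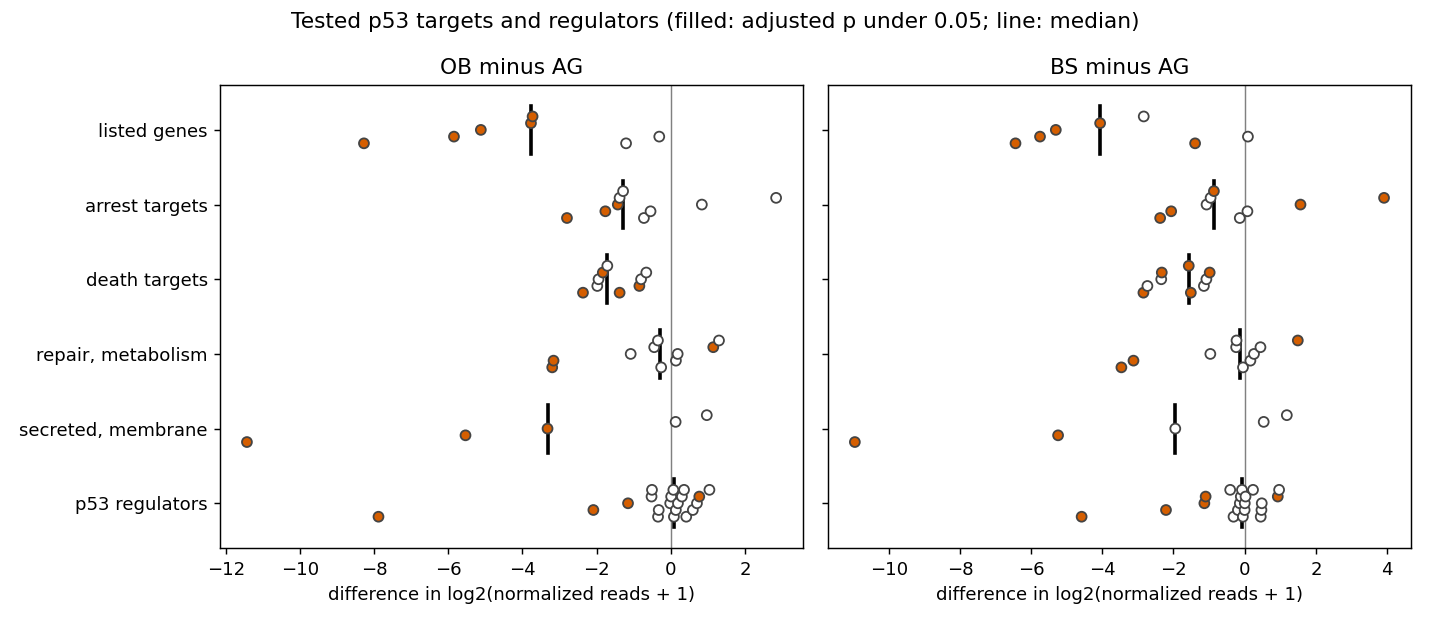
Each point is 1 tested gene, placed by its difference in log2(normalized reads + 1) in OB minus AG (left) and BS minus AG (right), by list, filled where the adjusted p is under 0.05, with a line at the median of the list. The top row holds the 7 tested listed targets, without Trp53. Death targets lie below 0 throughout, and regulators have a median of 0.08 in OB and -0.06 in BS.

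Of 20 tested among 24 genes that act on p53, 3 were called lower (15%) and 1 higher (5%) in OB, against 19.0% and 16.0% of all genes. In BS 4 were called lower (20%) and 1 higher (5%), against 19.5% and 15.6% of all genes. The shares lower are near those of all genes, and the kinases Atm, Atr, Chek1 and Chek2 were not called in either comparison. Cdkn2a, whose locus encodes the Mdm2 inhibitor ARF beside the kinase inhibitor p16, had 420.0 to 771.8 in OB, 522.7 to 717.2 in BS and 1214 to 1383 in AG. The log2 difference was -1.15 in OB (limma adjusted p = 0.00711) and -1.10 in BS (limma adjusted p = 0.00902). Ppm1d, which encodes the phosphatase WIP1 that switches off p53 signalling, rose to 1103 to 1428 in OB and 1355 to 1501 in BS, against 729.6 to 751.4 in AG (limma adjusted p = 0.00515 and 0.00204). Ppp1r13l, which encodes the p53 inhibitor iASPP, fell in OB, with a log2 difference of -2.08 (limma adjusted p = 0.00190). In BS its difference was -1.13 (limma adjusted p = 0.0319), a call that ended with upper-quartile scaling and without any 1 AG or BS library. Twist1, a factor that represses p53 activity, had 1.09 to 5.71 in OB and 2.13 to 120.2 in BS against 706.6 to 742.1 in AG. Twist1 passed the filter only through AG, and its level is a description. In BS the number of regulators called was 2 without AG_1, AG_2 or AG_3, 3 without BS_287 or BS_296, and 3 with upper-quartile scaling, against 5. Trp63 and Trp73, the other members of the p53 family, were not analysed here.

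The genes whose levels ran most like those of 3 listed genes were found by the root mean square difference of centred log2 values over the 9 libraries. Being picked as the closest, they lie below the median by that choice, and the distances are a description. For Trp53 they were Scnm1, Hnrnpm and Pigp, at 0.24, 0.25 and 0.26, where the median gene stood at 0.78. For Ccng1 they were Il23r, Zbp1 and Mmp10, at 0.19, 0.20 and 0.20 with a median of 1.92, but all 3 had 0 reads in the 6 tumour libraries and 10.8 to 18.3 normalized reads in AG, so that their tumour level is that of the added 1. For Eda2r they were Cd34, Fn1 and Plag1, at 0.57, 0.59 and 0.77 with a median of 3.69. Cd34, a surface sialomucin, shares with Eda2r its trace in BS_287, at 15.9 normalized reads, and had 0 in the other 5 tumour libraries, against 265.7 to 299.6 in AG. Fn1, fibronectin, is 1 of the fibroblast markers counted above and also had its highest tumour value, 33.5, in BS_287.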

How the data were processed

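Per the submitters' processing notes the mouse build was mm9 and the tools were DESeq2 1.20.0, featureCounts (Subread 1.6.2), HISAT2 2.1.0 and bcl2fastq 1.8.4, with order and settings not given in the sources used here; per the labels the TruSeq kit was stranded. The deposited signal values are reads per RefSeq transcript divided by 1 size factor per library (0.905 to 1.20), since 100.0% of values became whole reads within 0.05 reads when it was undone. Of 16260 rows 16202 were named from a RefSeq table and 41 from GENCODE, and 17 were left out. Limma 3.58.1 in R 4.3.3 was run two-sided on log2(value + 1) of all 9 libraries, with 3 group means and a variance trend, on genes with 10 normalized reads in 3 or more libraries. Recovered reads were tested with DESeq2 1.42.0 and edgeR 4.0.16 as alternatives, and edgeR called 3724 genes between OB and AG, 3679 between BS and AG and 0 between the tumour groups; other alternatives changed the pseudocount, filter, scaling, variance model, compared groups or rows per gene, or left out 1 library. The fit was tested on simulated data with changes set only in genes better detected in AG than Trp53 and Mdm2. The simulation therefore says nothing of such low rows. Members, lists and tests were chosen with earlier results of these data known. The text names the listed genes and, of each other list, up to 4 called genes (5 of the regulators) with the largest differences in a comparison, not all of them given; genes said not to be called, and single marker genes were named after their values were seen. The p-values measure the spread between libraries of a group, which may be technical. Promoter sequences are RefSeq's. Figures were drawn with matplotlib 3.10.9.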

Additional observations from a re-analysis of the deposited data

Results flagged for a closer look

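Sesn1 stood on opposite sides of the AG mean in the tumour groups, below it in 3 of 3 OB libraries and above it in 3 of 3 BS libraries, with a mean difference between OB and BS of -23.2 normalized reads. The means were 76.8 in OB, 100.03 in BS and 94.6 in AG. The AG libraries themselves ran from 76.9 to 107.8, a range that holds all 3 BS values and OB_295. The OB minus BS difference, tested on the log2 scale, did not pass (limma adjusted p = 0.683), and OB_295, at 94.55, lies just below the AG mean of 94.63.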

How the results depend on the processing

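Ccng1 and Phlda3 kept their direction and their call against AG in OB and in BS under all 22 alternatives tried for each, the weakest being Phlda3 in OB (largest adjusted p = 0.0496). Fas and Eda2r were called throughout too, which says nothing of stability, since they passed the filter only through AG. The number of listed genes called ran from 4 to 6 in each comparison with AG, also with 1 library left out, and was 0 throughout in OB against BS. With 1 library left out, other p53 targets called ran from 5 to 14 in OB and from 9 to 17 in BS, and regulators from 2 to 5 in BS. Upper-quartile scaling called 3 regulators in BS, and DESeq2 called 1 in OB against BS. Differences that did not pass turned sign in places, and the cause was not tested. With 1 library left out, Trp53 ran from -0.17 to 0.57 in OB against AG, from -0.21 to 0.26 in BS against AG and from -0.17 to 0.58 in OB against BS; Sesn1 ran from -0.050 to 0.19 in BS against AG; in OB against BS Fas ran from -0.80 to 1.11 and Mdm2 from -0.053 to 0.59. Trp53 in BS against AG also turned with upper-quartile scaling (0.20), edgeR (0.082) and DESeq2 (0.045), and Fas in OB against BS with a pseudocount of 5 (0.16), edgeR (0.60) and DESeq2 (0.63). The title numbers shared by OB_287 with BS_287 and OB_295 with BS_295 have no stated meaning. Those pairs deviated from their group means with correlations of 0.069 and 0.30 over genes. The fit with the number as a replicate block called 0 listed genes, and 184 genes higher and 67 lower over all, and turned Fas (1.25) and Mdm2 (-0.18). The few reads of Trp53, Mdm2 and Aen limit what could be detected.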
